A study of Bos grunniens with 6 samples.

Results

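Genes of innate immune and cytokine signalling were followed in the testis of the cattle-yak, the male-sterile hybrid of yak and cattle. They were chosen by gene symbol alone, as pattern recognition receptors, interleukins, interferons, tumor necrosis factor (TNF) family members, chemokines, colony stimulating factors, CD antigens, their receptors and the signalling factors behind them. The rule found 193 of the 16186 m6A peaks in the list, on 126 of its 8986 gene identifiers, under 110 of its 7802 symbols. m6A is a methyl mark on adenosines of RNA. In MeRIP-seq an antibody pulls down RNA fragments that carry it (IP), and peaks are called where these fragments are enriched over the same RNA before the pull-down (input). Testis tissue was taken by castration from 3 untreated cattle-yaks (TES5, TES6 and TES7), all 5 years of age, and 1 IP and 1 input library was made from each, 6 in all. All animals belonged to 1 group, so that no condition could be compared. The peaks form 1 list for the group without a value per animal. How the animals were combined in it is not given in the sources used here, so a listed peak may come from any number of the 3. In contrast, the expression values, in FPKM (fragments scaled by transcript length and library size), are given for each input library and are comparable between genes because they are scaled by length.

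Pattern recognition receptors such as the Toll-like receptors bind molecules of microbes and, through adaptors and kinases, free NF-kB and the interferon regulatory factors to enter the nucleus. Interferons and many interleukins signal through JAK kinases and STAT factors, and SOCS proteins damp that signal. In the testis these pathways stand beside a tolerance that protects germ cells from immune attack, with resident macrophages as the main immune cells.

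The listed symbols and the listed annotation did not always name the same kind of gene. The GO terms and KEGG pathways beside the symbol named a function that fits it for 76 of the 126 identifiers, another function for 26, and nothing that could decide it for 24, which had no term, only broad terms for nucleus or cytoplasm, or transposon terms. The identifier listed as *CD74*, the invariant chain of antigen presentation, carried terms of the small ribosomal subunit (ENSBGRG00000022490). The identifier ENSBGRG00000002626, listed as the interferon *IFNE*, carried terms of translation elongation, and the one listed as *IL27*, terms of translation initiation factor 3. Which of the columns names these genes was not tested. Results are therefore given for all members and, where it matters, for the 76 whose terms fit.

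Repeated symbols gave a further reason for care. Of the 110 symbols, 7 (6.36%) stood on more than 1 identifier, against 768 of 7802 (9.84%) in the whole list. In all 7 the identifiers lay on 1 chromosome, as they did in 764 of the 768. *TLR7*, a receptor for single-stranded RNA, was listed for 9 identifiers with 14 peaks, all on chromosome Y within 4489817 bp. Only ENSBGRG00000019181 of them, from 18285203 to 18303404 (LU_Bosgru_v3.0, as all coordinates here), carried Toll-like receptor terms, with 1 peak of 149 bp in exon 2 of 2. Its FPKM was 1.10 in TES5, 1.16 in TES6 and 0.744 in TES7. Of the other 8, 4 carried terms of DNA-binding transcription factors and 2 of apoptosis and retinoic acid receptor binding. The one listed as *TLR7* with the highest level, ENSBGRG00000008174, was among these last and reached 71.4, 81.4 and 57.7. *IFNE* stood on 4 identifiers of chromosome 7, and *IKBKG*, *IRAK2*, *IRAK3*, *SOCS5* and *CD34* on 2 each.

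Member peaks lay mostly in exons, at shares close to those of all peaks. The exon class held 136 of the 193 (70.5%, 95% Wilson interval 63.7% to 76.5%), against 70.3% of all 16186. The 3' UTR class held 42 (21.8%, 16.5% to 28.1%), against 20.8%. The 5' UTR class held 15 (7.77%, 4.77% to 12.4%), against 8.82%. All 3 shares of the whole list lay within the members' intervals, which cover counting error only. A single peak was listed for 75 of the 126 genes (59.5%, 50.8% to 67.7%), against 54.0% of all genes with a peak. A further 37 members had 2 peaks, 12 had 3, and 2 had 4, while no member had more, against 3.28% of all genes. Peak number and mean FPKM were nearly unrelated across the members (Spearman's rho = -0.05 over 126 genes, which are not independent replicates).

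**Figure D1:**
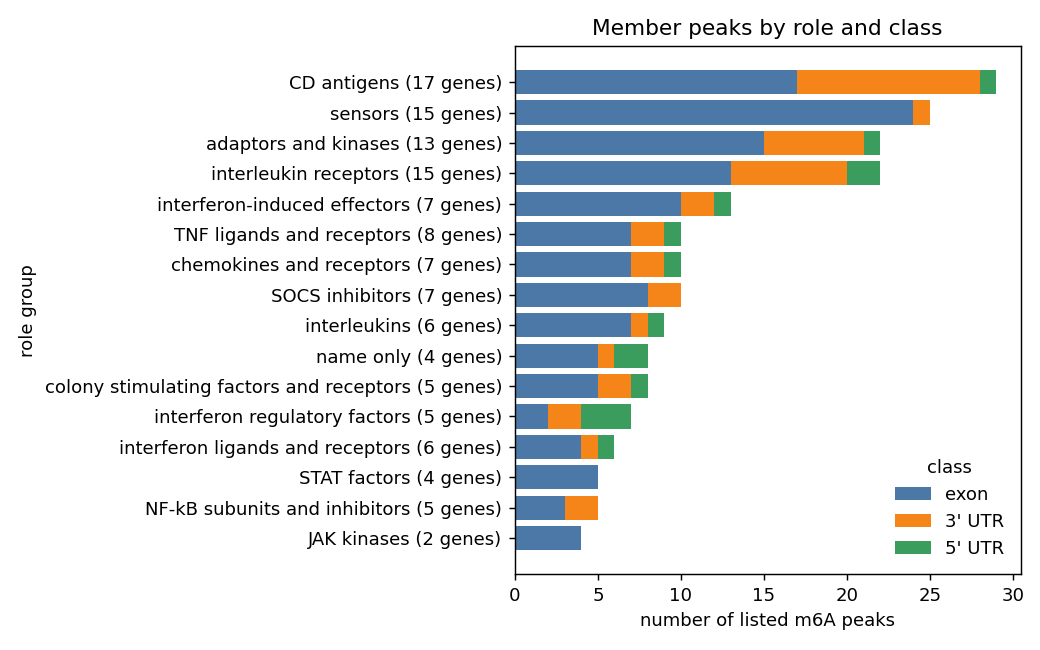
Number of listed m6A peaks (horizontal axis) for each role group of the member genes, with bars split into exon, 3' UTR and 5' UTR class. The CD antigens held the most peaks with 29, and 24 of the 25 peaks of the sensors lay in exons.

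Exon peaks of the members were narrower than exon peaks in general. Their median width on the genome, introns included, was 494 bp (quartiles 201 and 2438 bp), against 1333 bp (346 and 5308 bp) for all exon peaks. In the 3' UTR class the medians were 480.5 bp and 447 bp. Over all classes 64.2% of member peaks were at most 1000 bp wide (57.3% to 70.7%), against 49.8% of all peaks, whose share lay below the members' interval. The median was 495 bp, and it was 495 bp as well for the 119 peaks on genes whose terms fit. With other terms it was 296 bp, and with uninformative terms 967 bp, over 37 peaks each. The 23 exon peaks with uninformative terms were not narrower, with a median of 2139 bp. The listed transcripts of the members were also shorter, with a median span of 21694 bp against 28394 bp, and the part of span in the widths was not tested. The last exon held 45 of the 136 exon peaks (33.1%, 25.7% to 41.4%), against 18.2% of all exon peaks. Of 101 exon peaks on transcripts with 3 exons or more, 17 lay in the last (16.8%, 10.8% to 25.3%), against 11.6%. Of all exon peaks of the members, 11 of 136 lay on single-exon transcripts (8.09%, against 4.34%).

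**Figure D2:**
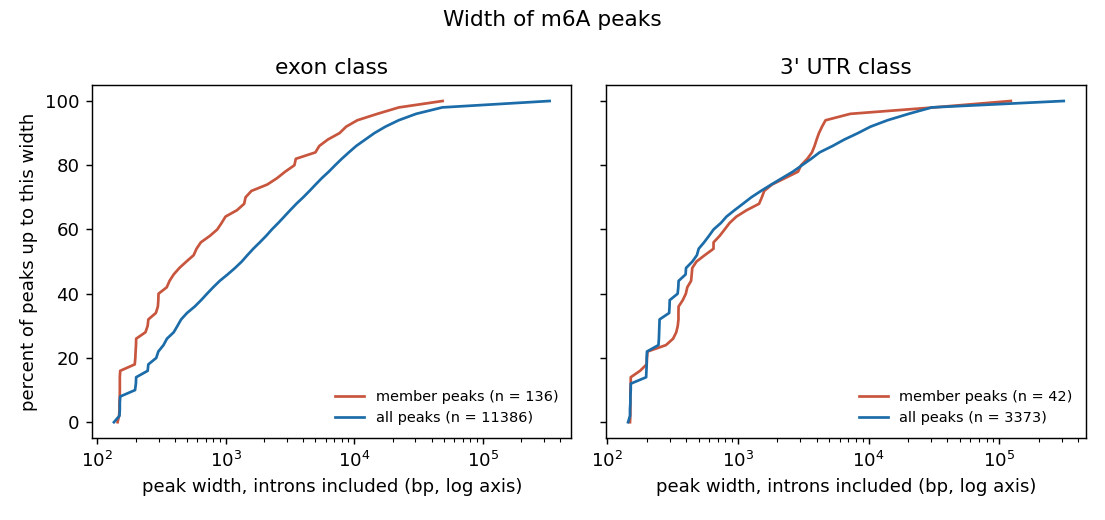
Cumulative percent of peaks (vertical axis) up to each width in bp (log axis) for member peaks and all peaks, in the exon class (left) and the 3' UTR class (right). The exon curve of the 136 member peaks lies to the left of that of all 11386, with medians of 494 bp and 1333 bp, whereas the 3' UTR curves run close together over most of the range.

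The widest member peak, of 122530 bp, ran past the end of the listed transcript of *CD44*, whose terms name glutamate transport. The next were a peak of 48832 bp on the identifier listed as *IL13*, on a transcript of 25 exons, and one of 38893 bp on *IKBKB*. The narrowest were 144 bp on a *TLR7* identifier and 148 bp on *CD52*, *IL1RAPL1*, *IL1RAPL2* and *IL11*. For 9 of the 193 peaks (4.66%, against 3.40% of all) the annotation named an exon of another gene or lay off the listed transcript. They were both peaks each of *CCR9*, *TNFSF18* and *IL1RAPL2*, and 1 each of *IL1RAPL1*, *CD28* and *IFNE* (ENSBGRG00000002520). Apart from *CD28* these genes had a mean FPKM under 1.

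Members were less abundant in the input RNA than genes with a peak in general. The median over the 126 genes of the mean FPKM was 3.86, and it ran to 3.52, 4.12 and 4.07 in TES5, TES6 and TES7. The median over all 8775 genes with a peak and an FPKM was 7.36. In each of the 3 animals the FPKM reached 1 for 98 members (77.8%, 69.8% to 84.2%), against 86.9% of all, and it stayed under 1 in each for 18 (14.3%, 9.23% to 21.5%), against 7.72%. No member was listed at 0 in all 3. FPKM values keep no read numbers, so the precision of the lowest levels is unknown, and in whole tissue fewer cells of a type and less RNA per cell cannot be told apart.

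Identifiers whose terms named another function than the symbol stood at the top of the order. Among the 10 highest members 7 carried terms of another function, and among the 20 highest 10 did. *CD74* was listed at 377, 353 and 369 FPKM in TES5, TES6 and TES7. *IFNE* (ENSBGRG00000002626) followed at 166, 141 and 143. The *IRAK3* identifier with terms of DNA helicases (ENSBGRG00000019078) stood at 80.5, 60.0 and 62.4, and *IL27* at 76.9, 61.5 and 62.8. *CD74* was above *IFNE* and *IFNE* above the next in every animal, but over the whole order only 4 of 125 neighbouring pairs had ranges that did not overlap. The 26 genes with such terms had a median mean FPKM of 7.25, and the 76 with fitting terms 3.70.

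**Figure D3:**
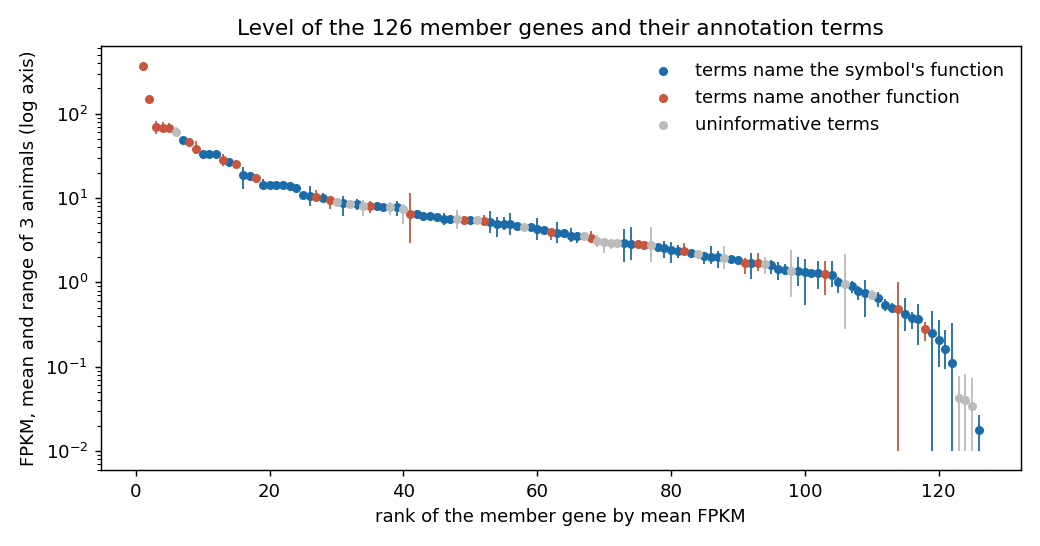
Mean FPKM (points, log axis) and range over 3 animals (lines) for the 126 members, ordered by mean and coloured by whether the GO and KEGG terms fit the symbol. Lines that reach a value of 0 end at 0.01. The 5 highest points all belong to identifiers whose terms name another function.

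Of the 25 peaks on the 15 identifiers listed as sensors 24 lay in exons, and 14 of the 25 were on *TLR7* identifiers. Mean FPKM ran from 0.281 to 70.2 over the 15, and the highest of the 7 with fitting terms was *NLRX1*, a mitochondrial member of the NOD-like family, at 8.01, 9.59 and 14.1 FPKM with 2 exon peaks. It was lowest in TES5 and highest in TES7. *TLR1*, *TLR2* and *TLR6*, which act as pairs in sensing bacterial lipopeptides, had mean FPKM of 1.70, 0.424 and 0.787 and 1, 2 and 2 peaks, each of at most 250 bp. *NLRP14*, a gene of this family known from germ cells, held 3 peaks on chromosome 13, from 39800924 to 39806675, from 39807476 to 39807676 and, in the 3' UTR, from 39840288 to 39840488. Its level was 1.66, 1.69 and 2.72.

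Among adaptors and kinases all but 1 of 13 identifiers had an FPKM of at least 1 in every animal. *IRAK1*, an X-linked kinase below the Toll-like receptors, was the most abundant with fitting terms, at 13.8, 15.1 and 14.6, and held 1 exon and 1 3' UTR peak. *IKBKB*, the kinase that marks the NF-kB inhibitor for decay, held 3 peaks and stood at 5.93, 6.14 and 7.14. Its X-linked partner *IKBKG* (ENSBGRG00000026284) also held 3 peaks, at 7.01, 8.01 and 8.31. *TNFAIP3*, an inhibitor of NF-kB signalling, had 2 exon peaks and 1 in the 3' UTR, of 917 to 1434 bp, and an FPKM of 3.02, 3.16 and 4.47.

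The NF-kB subunits and inhibitors were 5 genes with 1 peak each. *NFKB1* varied very little between animals, at 3.55, 3.45 and 3.53 (coefficient of variation 1.52%), with a 3' UTR peak of 3077 bp. *NFKBIL1* was the highest at 13.9, 13.6 and 15.6. *RELB* was higher in TES5 (5.85) than in TES6 (3.19) and TES7 (3.80), and *REL* was the lowest of the group, with a mean of 2.00. In the TNF family *TNFRSF1A*, the main receptor of TNF, stood apart at 51.0, 45.5 and 48.4 with 1 exon peak of 149 bp. Of the 8 genes of this family 4 were under 1 FPKM in all 3 animals. One of them was *TNFSF10*, a death ligand, at 0.182, 0.376 and 0.551.

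None of the 6 identifiers listed as interleukins carried fitting terms. The largest spread between animals among all members with an FPKM of at least 1 was that of *IL11*, at 11.4, 4.95 and 2.91 (coefficient of variation 69.3%), and its terms named mitochondria and oxidative phosphorylation. Interleukin receptors were better supported, with fitting terms for 11 of 15. Their levels were low, with a median of the means of 1.27 and a highest mean of 5.98. The highest were *IL4R*, at 5.70, 6.24 and 6.01, and *IL17RA*, at 4.95, 5.98 and 6.12. Both peaks each of *IL2RA*, *IL2RB* and *IL4R* lay in the 3' UTR. Both of *IL17RC* were listed in the 5' UTR class, yet their midpoints lay at 98.7% and 98.4% of its span. The peak of 400 bp lay inside that of 547 bp, and both overlapped the listed transcript of *CRELD1*. Which transcript their class refers to was not tested. *IL1RAPL1* and *IL1RAPL2*, X-linked genes known from synapses, were at or below 0.0783 in every animal.

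Chemokine genes with peaks included *CXCR4*, the receptor of *CXCL12*, with 2 exon peaks and an FPKM of 6.12, 7.88 and 9.20. The ligand *CXCL12* held a 3' UTR peak of 2895 bp and stood at 6.10, 9.46 and 8.67. *CXCL9*, an interferon-gamma-induced chemokine, was at 1.86 and 2.19 in TES5 and TES6 and at 4.57 in TES7, with a peak in the 5' UTR class. *CCR9* and *CCR10* were listed at 0 in at least 1 animal each and nowhere above 0.332. Among the colony stimulating factors *CSF1*, which sustains macrophages, held 3 peaks and stood at 2.35, 2.74 and 2.82, and its receptor *CSF1R* held 2 and stood at 4.09, 4.56 and 4.95. The identifier listed as *CSF2* had the highest mean there, at 9.24, 8.38 and 6.57, with terms of long-chain fatty acid activation.

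All 17 identifiers of the CD antigens had an FPKM of at least 1 in every animal, with fitting terms for 6. *CD163*, a scavenger receptor of macrophages, held 4 exon peaks, as many as any member, on chromosome 5 from 99033 to 126506. Its FPKM was 3.64, 4.50 and 6.61. *CD14*, a co-receptor for bacterial lipopolysaccharide, was at 5.66, 4.77 and 6.73, and *CD68*, a lysosomal marker of macrophages, at 3.97, 3.69 and 2.92. *CD28*, the other gene with 4 peaks, carried transposon terms, with a peak of 31498 bp on a listed transcript of 15 exons.

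**Figure D4:**
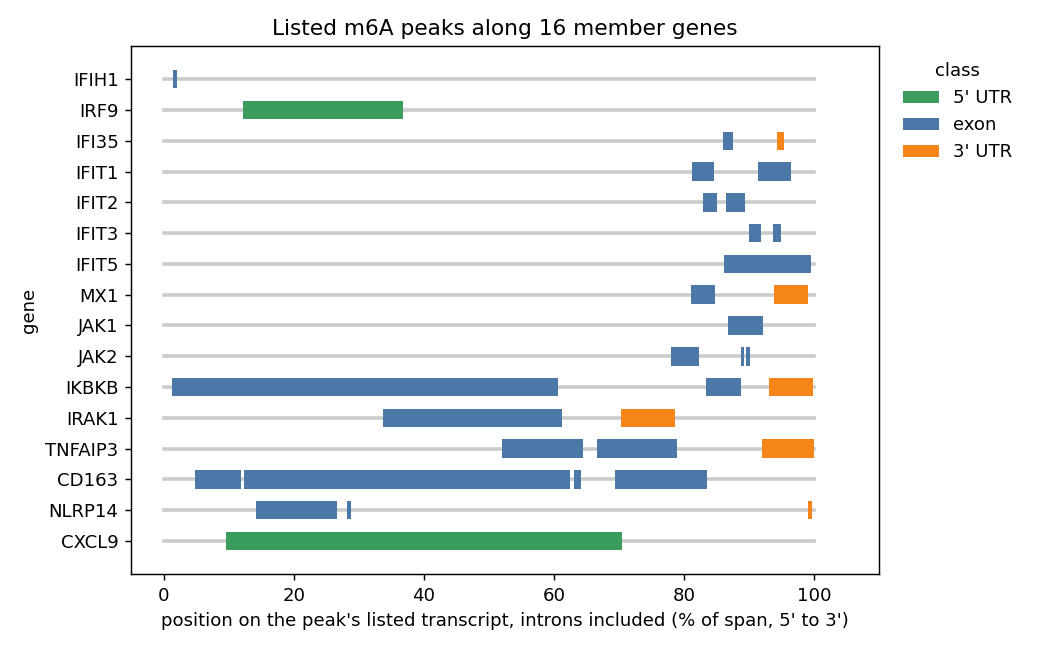
Position of listed peaks (coloured by class) on the transcript named for them, as percent of its span from the 5' to the 3' end with introns, for 16 members with a single listed transcript. The peaks of *IFIT1*, *IFIT2*, *IFIT3* and *IFIT5* lie in the last part of the span, whereas the single peak of *IFIH1* lies in its first exon.

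In the JAK-STAT pathway *JAK1* was far above *JAK2*. It stood at 56.7, 56.0 and 69.0 with 1 exon peak of 3779 bp, and *JAK2* at 3.05, 3.67 and 2.66 with 3. The ranges did not overlap. *STAT2*, which carries interferon signals, stood at 9.98, 11.5 and 11.2 with 1 exon peak, and *STAT3* and *STAT4* were at means of 5.57 and 2.99. The terms of *JAK1*, *JAK2* and *STAT4* decided nothing, and those of *STAT3* named the nuclear envelope and secretory granules. All 9 peaks of JAK and STAT genes lay in exons. Of the SOCS genes *SOCS5* (ENSBGRG00000007750) had a mean of 14.3 ± 1.23 (SD, n = 3), *SOCS7* of 14.0 ± 0.668 and *SOCS4* of 10.1 ± 1.28. The other *SOCS5* identifier (ENSBGRG00000007812), whose terms name calcium binding, had the highest mean of the group, 46.4 ± 2.49. *SOCS3*, a feedback inhibitor induced by cytokines, was at 2.02 in TES5, 0.902 in TES6 and 1.13 in TES7.

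Receptor chains for interferon-gamma were moderately abundant. *IFNGR1* stood at 13.6, 13.0 and 16.9 and *IFNGR2* at 12.6, 12.7 and 14.1, each with 1 peak. Of the interferon regulatory factors *IRF1* was the highest, at 31.3, 34.3 and 33.3, with an exon peak and a 3' UTR peak. *IRF2* (8.21, 7.74 and 7.98) and *IRF8* (5.40, 5.27 and 5.70), the latter a factor of myeloid cells, differed little between animals. *IRF4*, a factor of lymphocytes, was at most at 0.271. This group held 3 of its 7 peaks in the 5' UTR class.

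A further 4 members are named as partners or relatives of partners of these families rather than as members of them. They were *IRF2BP1* and *IRF2BP2*, corepressors that bind *IRF2*, their relative *IRF2BPL*, and *JAKMIP1*, which binds Janus kinases and microtubules, with 8 peaks in all. *IRF2BP1* varied least of all members with an FPKM of at least 1, at 32.8, 32.9 and 33.2 (coefficient of variation 0.628%). Over the 98 members at that level the median coefficient of variation between animals was 14.9% (quartiles 8.40% and 22.4%), against 11.6% (6.97% and 17.9%) over all 7629 genes. The 5 largest were those of *IL11*, *MX1* (57.5%), *CXCL9* (51.5%), *CD48* (44.8%) and *CD247* (35.0%), and the smallest after *IRF2BP1* were those of *NFKB1*, *IRF2* (2.91%), *CD74* (3.38%) and *IL1R1* (3.59%).

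A group of 8 members, taken by symbol as interferon-induced after their values were seen, was ordered alike across the animals. It held the 7 effectors with IFI, OAS and MX symbols, and *IFIH1*, the sensor of long double-stranded RNA. The group had 14 peaks, and all 8 genes were lowest in TES5 and highest in TES7. It does not cover every member tied to interferon. Outside it *CXCL9* and *IRF9* had the order, whereas *IRF1* and *STAT2* did not. The same order was found for 21.2% of all 8775 genes with a peak and an FPKM, and for 44 of the 126 members (34.9%, 27.2% to 43.6%), and the reverse order for 18.8% of all genes and 16 members (12.7%). It was noticed in these data, and no test was made.

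*IFIT1*, which binds RNA with foreign ends, stood at 0.538, 1.57 and 1.89 FPKM in TES5, TES6 and TES7. *IFIT3*, its partner, stood at 0.392, 0.784 and 1.08. *IFIT5* was the most abundant of the family at 12.9, 20.1 and 23.6. In these 3 genes TES6 lay nearer to TES7 than to TES5. *MX1*, a GTPase that traps virus particles, stood at 1.73, 1.94 and 4.56, and *OAS1*, which makes the activator of an RNA-cutting enzyme, at 0.677, 0.994 and 2.40. In this pair TES7 stood apart from the other two. The terms of *MX1* and *OAS1* were uninformative. *IFI35*, *IFIT2* and *IFIH1* spanned less from the lowest to the highest animal, from 1.65 to 2.31, from 0.454 to 0.636 and from 1.06 to 1.73. Over the 8 genes TES7 was 1.40 to 3.55 times TES5, with a median of 2.23, and the median over all genes with a peak was 1.02. The largest ratios, of *OAS1* (3.55), *IFIT1* (3.51) and *IFIT3* (2.74), rest on TES5 levels under 1 FPKM, whose precision is unknown.

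Factors that drive these genes showed the same order in part. *IRF9*, a DNA-binding partner of *STAT2*, was at 3.80, 4.77 and 6.98 and had it, whereas *STAT2* was highest in TES6.

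**Figure D5:**
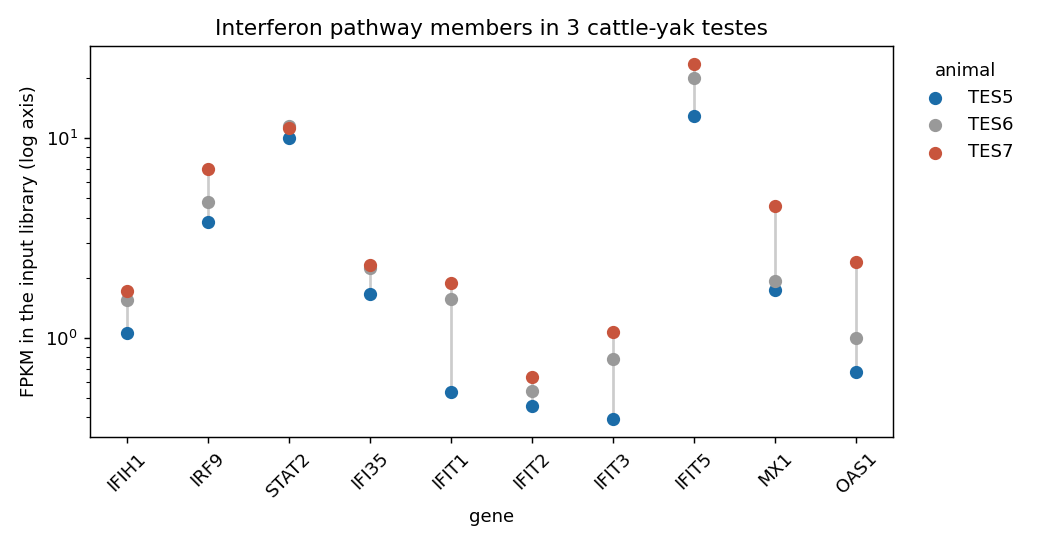
FPKM (log axis) in the input library of each animal for *IFIH1*, 2 factors of interferon signalling and 7 interferon-induced effectors, with grey lines from the lowest to the highest animal. TES5 is the lowest point for all 10 genes, and TES7 is the highest for all but *STAT2*.

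Peaks of the IFIT family lay side by side on chromosome 25, in order *IFIT2*, *IFIT3*, *IFIT1* and *IFIT5*, within 11911608 to 11981227. *IFIT2* held peaks from 11917466 to 11917616 and from 11917715 to 11917915, both in exon 2 of 2. *IFIT3* held them from 11937724 to 11937922 and from 11938119 to 11938267, in exon 3 of 4. *IFIT1* held them from 11962791 to 11962991 and from 11963390 to 11963689, in exon 2 of 4. *IFIT5* held 1 from 11979879 to 11981177, in exon 2 of 2. The 7 peaks thus lay in 1 exon of each gene, between 83.0% and 94.3% of the span by their midpoints. The IFIT genes resemble each other in sequence, so how reads were divided among them is uncertain.

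Other genes of these pathways, taken by name from a list made apart from the symbol rule, were counted in the same way. The list also holds *IL6R*, which matches the rule, and both *STING1* and its other name *TMEM173*, none with a peak. Of 68 symbols 48 had a peak, on 56 identifiers with 93 peaks, of which 64 were exon peaks, 24 were 3' UTR peaks and 5 were 5' UTR peaks. The order with TES5 lowest and TES7 highest was found for 20 of the 56, beside 21.2% of all genes. The reverse was found for 5, beside 18.8% of all genes. *EIF2AK2*, an interferon-induced kinase that senses double-stranded RNA, had the order at 0.472, 0.855 and 1.32, and *ADAR*, an RNA editing enzyme, at 20.9, 25.2 and 28.2. *MAVS*, the adaptor of *IFIH1*, had it at 12.9, 17.2 and 18.2. *ISG15* and *DHX58*, also interferon-induced, did not, at 1.44, 1.18 and 2.15 and at 2.66, 3.57 and 3.06. *GBP2*, an interferon-induced GTPase listed for 3 identifiers, had it for 1 of them.

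Markers of leukocytes moved with the order in part. Of 7 macrophage markers 5 had a peak, among them the members *CD14*, *CD68*, *CD163* and *CSF1R*, and their summed FPKM was 21.1 in TES5, 22.6 in TES6 and 26.9 in TES7. *CD163*, *CSF1R* and *PTPRC*, the last of them common to leukocytes, had the same order, *CD14* did not, and *CD68* had the reverse. Of 6 T cell markers only *CD3D* had a peak, at 3.49, 6.02 and 5.42. Of 4 B cell markers *MS4A1* was listed at 0 in TES6 and TES7 and at 0.0742 in TES5, and the identifier listed as *CD79B*, at 47.5, 33.6 and 35.1, carried terms of integrin binding. The part of leukocytes in the order was not tested. Of the 15 interleukin receptors among the members 5 had the order and 1 the reverse, beside 21.2% and 18.8% of all genes. Among the 5, *IL7R* was at 0.283, 0.435 and 2.14, *IL10RA* at 0.836, 1.20 and 1.78, and *IL2RB* at 2.90, 3.55 and 5.19. *IL17RA* (4.95, 5.98 and 6.12) and *IL1R1* (1.23, 1.28 and 1.32) also had the order. *IL2RA* (2.32, 1.96 and 2.80), *IL4R*, *IL12RB1* and *IL21R* did not have it.

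Markers of the tissue were present. The Sertoli cell factor *SOX9* stood at 26.7, 27.5 and 28.4, the Leydig cell gene *STAR* at 100.2, 107.7 and 111.9, and *SYCP3* of spermatocytes at 24.4, 18.0 and 19.8. *STAR* was the only Leydig cell marker with a peak (1 of 5). In TES5, TES6 and TES7 the summed FPKM of the spermatogonia markers with a peak (2 of 5) was 7.18, 9.69 and 12.0, in the same order as the 8 members grouped as interferon-induced. *ZBTB16*, a factor of undifferentiated spermatogonia, made up most of it at 6.61, 8.76 and 11.2. *GFRA1*, the other of these markers with a peak, did not have the order, at 0.572, 0.936 and 0.863. The sum of the Sertoli cell markers (3 of 6) was 56.9, 69.9 and 67.8, and that of the spermatocyte markers (2 of 3) was 31.1, 22.7 and 24.7. That of the peritubular myoid markers (3 of 3) was 330.9, 374.0 and 358.7, and that of the endothelial markers (3 of 3) was 7.83, 8.59 and 6.71. None of the 3 spermatid markers had a symbol in the peak list and they were not analysed here. The part of these cells in the order was not tested either.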

How the data were processed

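Poly(A) RNA of testis from 3 cattle-yaks was sequenced as IP and input libraries. Per the labels and the study's methods, the authors trimmed reads (Trimmomatic), removed ribosomal RNA (SortMeRNA), aligned to LU_Bosgru_v3.0 (HISAT2 2.0.4), called peaks (MeTDiff) and annotated them (ChIPseeker). The methods describe peak calling per sample, but the deposited peaks form 1 list without scores or animals. FPKM values for 20953 genes were computed and deposited by the authors. No count model was used, since low values showed no regular step from which reads could be recovered, and the files give no depth.

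Members were matched by symbol. Shares have 95% Wilson intervals, and no hypothesis was tested. Genes were named by role, mostly those with the most peaks, the highest FPKM, the largest or smallest coefficient of variation, on X or Y, or with repeated symbols. Not every gene that met these criteria is given with values. Members and lists were chosen with earlier results of these data known. Terms were read by hand after the values were seen, as were the interferon order and other single genes. Coefficients of variation and SDs were computed on FPKM, except the SD on the log scale, which used log2(FPKM + 1). Python 3.11.15, pandas 2.3.3 and SciPy 1.17.1 were used, and procedures were tested on simulated data. No sequence of this build was used here. One member gene is counted among the totals but not reported here.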

Additional observations from a re-analysis of the deposited data

How the results depend on the processing

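No paired analysis was possible because peaks carry no value per animal and the FPKM table covers input libraries alone, so that no IP value stands beside an input value of the same number. Peak number, class shares, single-peak share, median width, median FPKM and coefficient of variation stayed within 1.5 times or within their intervals (medians of FPKM within the SD between animals) under all alternatives run except those named next. With only genes whose terms fit, an alternative chosen after seeing the data, the peak number fell from 193 to 119 and genes that reached an FPKM of 1 in every animal from 98 to 57, since fewer genes enter. With a pseudocount of 0.1 in place of 1, the median SD of log2 FPKM between animals was 0.25 in place of 0.17. Without each animal in turn the 98 became 99 to 100 and the median mean FPKM 3.74 to 3.87. Rescaling the libraries left all 8 interferon-induced genes in the same order. Rescaling to a common FPKM sum moved the share of all genes with it from 21.2% to 25.0%, and with the reverse from 18.8% to 15.2%. Members with the order then went from 44 to 48, and those with the reverse from 16 to 10. FPKM without read numbers limits what can be said of levels near 0.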

Other observations

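The largest ratio of TES7 to TES5 among the members was that of *IL7R*, at 7.58, with 1 exon peak of 196 bp and transposon terms, and its FPKM was under 1 in TES5 and TES6. The smallest ratio among members above 0 in all 3 animals was that of *IL11*, at 0.254. Among the 76 genes with fitting terms 32 (42.1%, 95% Wilson interval 31.6% to 53.3%) were lowest in TES5 and highest in TES7, and among the 26 with other terms 6 (23.1%, 11.0% to 42.1%). Among the 24 with uninformative terms 6 had this order (25.0%, 12.0% to 44.9%), beside 21.2% of all genes with a peak. No test was made between these counts, and the classes were set after the values were seen.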
